A study of Mus musculus with 18 samples.

Results

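The subject is the machinery of oxidative phosphorylation: 98 of the 32285 genes counted, taken by name, of which 85 are encoded in the nucleus and 13 in mitochondrial DNA. Genes named Nduf, Sdh, Uqcr, Cox4 to Cox8 and Atp5 make up the nuclear set, with 38 in complex I, 4 in complex II, 8 in complex III, 18 in complex IV and 17 in complex V. The mitochondrial set is the mt-Nd, mt-Cytb, mt-Co and mt-Atp genes, with 7 in complex I, 1 in complex III, 3 in complex IV and 2 in complex V. The rule goes by gene name. Ndufa4 is counted here under complex I by its name, although it is now regarded as a subunit of complex IV, and Ndufb1-ps is annotated as a non-coding RNA.

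RNA came from mouse bone marrow of strain C57BL/6, as iLS cells positive for CD45.2 that were sorted by flow cytometry, in 18 libraries. The groups, with 3 libraries each, were CD45.2(+) BRD9-NUTM1 (BN1), CD45.2(+) AFF1-NUTM1 (AFFN1) and CD45.2(+) control cells, each on day 14 and on day 6. BRD9-NUTM1 and AFF1-NUTM1 are gene fusions to NUTM1. The labels name the control of day 6 as mock and do not say how the fusions were introduced, what the days count from, or whether replicates came from separate animals or cultures, so p-values measure the spread between these libraries, which may be technical. Sample names follow 1 scheme on day 6 and another on day 14, so day and experiment cannot be told apart.

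Complex I takes electrons from NADH and complex II from succinate, coenzyme Q carries them to complex III, cytochrome c carries them on to complex IV, and complex V, the ATP synthase, uses the resulting proton gradient to make ATP. The mitochondrial genome supplies core subunits of complexes I, III, IV and V, transcribed from its strands as long precursors, while all of complex II and most other subunits come from nuclear genes whose products are imported. The transcription factors NRF1, the ETS family member GABP and YY1 are known regulators of many of these nuclear genes, and the demand for oxidative phosphorylation changes as blood progenitors leave quiescence and grow.

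Library totals were 14182531 to 18383447 counts. Ptprc, which encodes CD45, stood at 185 to 408 CPM (counts scaled to a common library total), and all 13 B-lineage progenitor markers were detected in every library, with summed levels of 6316 to 15090 CPM. Summed levels in the other marker lists were 204 to 2094 CPM for stem and multipotent progenitors, 13.9 to 164 CPM for stroma, 16.9 to 152 CPM for myeloid cells, 77.7 to 238 CPM for T and NK cells and 1.90 to 39.5 CPM for erythroid cells and megakaryocytes. Of the 98 members, 78 nuclear and all 13 mitochondrial ones had enough counts to be tested. The 7 others are isoforms of other tissues or conditions, of which Cox7b2, Cox6b2, Cox8b and Cox8c had 0 counts in every library. The rest had few counts: Cox7a1, of muscle and heart, had 12 counts over the day 14 BN1 libraries and 25 over the day 14 control libraries and 0 in the other groups, and Cox4i2 and Ndufa4l2 had at most 7 and 1 counts in any group. Cox6a2, the muscle form of Cox6a, passed the filter on low counts with 90 to 323 counts per group.

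The promoter stretches below show what binding motifs precede nuclear members that fell in BN1 cells on day 6. In each complex with such a gene, the member with the largest fall was taken among those that have a single start site in the RefSeq table and a motif within 150 bases before it. Bases are from RefSeq, build GRCm38.p6, read 5′ to 3′ on the gene's own strand, which is the minus strand for all 4. Capitals mark an NRF1 motif (GCGC, any base, then TGCGC) or an ETS motif (CCGGAAG), on either strand. Ndufs6, an accessory subunit of complex I, has its stretch at chr13:73328483-73328632. Uqcr11, the smallest subunit of complex III, has it at chr10:80406822-80406971. Cox6a1, a regulatory subunit of complex IV, has it at chr5:115348959-115349108. Atp5k, subunit e of the ATP synthase, has it at chr5:108434400-108434549.
Ndufs6: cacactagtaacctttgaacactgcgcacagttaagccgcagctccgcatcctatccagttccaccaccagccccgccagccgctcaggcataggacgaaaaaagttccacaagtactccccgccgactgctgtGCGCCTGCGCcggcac
Uqcr11: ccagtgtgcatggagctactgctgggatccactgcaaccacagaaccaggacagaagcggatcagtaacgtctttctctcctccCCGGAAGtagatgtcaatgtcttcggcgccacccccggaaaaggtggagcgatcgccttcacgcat
Cox6a1: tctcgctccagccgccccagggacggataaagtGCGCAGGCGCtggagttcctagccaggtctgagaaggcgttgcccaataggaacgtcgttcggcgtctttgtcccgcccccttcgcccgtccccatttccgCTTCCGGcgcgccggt
Atp5k: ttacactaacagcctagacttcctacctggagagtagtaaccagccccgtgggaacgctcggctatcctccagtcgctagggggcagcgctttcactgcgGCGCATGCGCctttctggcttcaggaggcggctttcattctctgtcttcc

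A window of 250 bases before to 50 after the start was given for 63 of the 78 tested nuclear members. Of these 63, 17 held the NRF1 motif, and 5.19% of all 27025 genes with a window did. The ETS motif was also in 17, and in 9.93% of all genes, and the YY1 motif (ATGGCGG) was in 15.9% of the members and 4.69% of all genes. At least 1 of the 3 was present in 58.7% of the members and 17.3% of all genes, with overlaps between motifs allowed. Among the 39 windows of members that fell in BN1 cells on day 6 the share was 56.4%, and among the 24 windows of the other tested members it was 62.5%. A match describes letters in a window and is not evidence of binding.

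The first comparison asked how BN1 cells differed from control cells on day 6. Nuclear subunits of every complex were lower in BN1 cells. Of 78 nuclear members tested, 46 fell and none rose, against a background of 17.4% of all genes called in either direction, 8.53% lower and 8.83% higher (edgeR's quasi-likelihood test, adjusted p under 0.05). Those that fell were 23 of 37 in complex I, 1 of 4 in complex II, 4 of 8 in complex III, 9 of 12 in complex IV and 9 of 17 in complex V. The median log2 fold change of the 78 was −0.38, against −0.02 over all genes tested. BN1 values lay below all control values for 62 of the 78, against 16.9% of all genes. In bulk RNA, fewer cells of a type and less RNA per cell cannot be told apart.

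Complex V held the largest fall. Atp5k had 9.77, 18.8 and 13.4 CPM in BN1 cells and 23.8, 29.7 and 28.0 CPM in control cells. The groups did not overlap, and the fall was 1.94-fold (log2 fold change −0.96, SE 0.22, adjusted p = 0.0151 by edgeR). Atp5h, subunit d of the stator, had 90.7, 98.5 and 92.0 CPM in BN1 cells and 122.7, 130.4 and 114.6 CPM in control cells, a smaller change with less spread (−0.39, SE 0.07, adjusted p = 0.00543). Atp5g3, 1 of 3 genes for the c-ring of the rotor, fell by 0.57 on the log2 scale (adjusted p = 0.0181). Its relatives Atp5g1 and Atp5g2, which encode the same mature protein, did not pass, with values of −0.71 (SE 0.24, adjusted p = 0.0706) and −0.19 (adjusted p = 0.22) on the log2 scale. Atp5b, the catalytic beta subunit and the most abundant nuclear member by counts, had 785.4, 910.2 and 909.6 CPM in BN1 cells and 1280, 1480 and 934.2 CPM in control cells. That difference (−0.50, adjusted p = 0.0538) and the one of the alpha subunit Atp5a1 (−0.36, adjusted p = 0.0651) did not pass the test.

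In complex IV, Cox7c, a small structural subunit, had 44.0, 74.5 and 55.5 CPM in BN1 cells and 96.1, 108.5 and 91.1 CPM in control cells, with no overlap (−0.77, SE 0.17, adjusted p = 0.0143). Cox7b, another small subunit, and Cox5a, a nuclear subunit next to the catalytic core, fell by 0.59 (adjusted p = 0.00896) and 0.54 (adjusted p = 0.0346) on the log2 scale. Cox4i1, the ubiquitous form of the largest nuclear subunit, had a value of −0.29 with adjusted p = 0.064. Cox7a2l, counted under complex IV by its name, stood apart from its complex. It had 298.6, 286.0 and 340.3 CPM in BN1 cells and 224.9, 192.4 and 280.9 CPM in control cells, a log2 fold change of 0.41 with adjusted p = 0.0963.

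Complex III had calls for some subunits only, and differences between subunits were not tested. Its small subunits Uqcr10 (−0.64, adjusted p = 0.0169), Uqcrb (−0.59, adjusted p = 0.018), Uqcrq (−0.56, adjusted p = 0.0391) and Uqcr11 (−0.54, adjusted p = 0.0109) fell. Uqcr10 had 25.7, 36.3 and 30.2 CPM in BN1 cells and 51.8, 53.4 and 38.6 CPM in control cells. The core proteins Uqcrc1 and Uqcrc2 and the iron-sulfur protein Uqcrfs1 had log2 fold changes of −0.26, −0.22 and −0.18, and Uqcrh, the hinge protein, one of 0.04, and none of these passed the test. In complex II, Sdhb, the iron-sulfur subunit, had 82.3, 104.5 and 98.8 CPM in BN1 cells and 144.0, 158.3 and 108.9 CPM in control cells (−0.53, adjusted p = 0.0282). Sdha, the flavoprotein, had a value of −0.21 (adjusted p = 0.0862), with the groups not overlapping.

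All 37 nuclear members of complex I had negative log2 fold changes, between −0.61 and −0.10. The largest fall was that of Ndufa5, an accessory subunit, with 11.2, 13.9 and 11.5 CPM in BN1 cells and 19.9, 20.1 and 15.8 CPM in control cells (−0.61, SE 0.17, adjusted p = 0.0303). Ndufs6, whose promoter is shown above, fell by 0.57 (adjusted p = 0.0327). Ndufa4, at 77.0, 92.4 and 75.8 CPM in BN1 cells and 112.1, 127.1 and 113.2 CPM in control cells, changed by −0.52 with the smallest adjusted p of this complex (0.00544). The core subunit Ndufs1 fell by 0.44 (adjusted p = 0.0321), whereas Ndufv1, which binds NADH, had a value of −0.27 that did not pass (adjusted p = 0.114).

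Of the 7 mitochondrial members of complex I, 4 fell in BN1 cells on day 6, and no mitochondrial member of another complex passed. mt-Nd6 had 23.2, 24.4 and 14.4 CPM in BN1 cells and 39.4, 38.3 and 26.4 CPM in control cells (−0.75, SE 0.20, adjusted p = 0.0322). mt-Nd3 (−0.63, adjusted p = 0.0288), mt-Nd4l (−0.59, adjusted p = 0.0431) and mt-Nd1 (−0.41, adjusted p = 0.0419) also fell. The other members of complex I had values of −0.36 for mt-Nd2, −0.18 for mt-Nd4 and −0.098 for mt-Nd5 (adjusted p = 0.0955, 0.317 and 0.572). The catalytic subunits of complex IV had log2 fold changes of 0.02 for mt-Co1, −0.11 for mt-Co2 and −0.05 for mt-Co3. mt-Co1 had 8934, 7898 and 7584 CPM in BN1 cells and 7973, 8582 and 7582 CPM in control cells, so the groups overlapped. mt-Atp8 had the most negative mitochondrial value (−0.78) but an adjusted p of 0.0708.

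How many members were called on day 6 rested on single libraries. From 50 of 91 members with all libraries, the count was 9 without BN1 library 1, where 9.31% of all genes were called, so that the members' share was near the background. It was 40 without BN1 library 2 (13.4% of all genes) and 23 without BN1 library 3 (12.7%). Without control library 1 it was 15 (10.1% of all genes) and without control library 2 it was 13 (11.1%), and every call in these 5 fits was lower. Without control library 3 it was 62, with 61 lower and 1 higher, against 28.6% of all genes. The fit on all 18 libraries called 25, against 8.21% of all genes. BN1 library 3 and control library 3 of day 6 stood apart, with immediate early and stress genes summing to 1877 CPM and 860.6 CPM. The other 7 libraries of that day had 450 to 541 CPM, and AFFN1 library 3 was among them at 501.1 CPM. Without all 3 libraries numbered 3, 68 members were called, 67 lower and 1 higher, against 32.2% of all genes, 16.0% of them called lower. Marker lists of other cells also differed between BN1 and control cells on day 6. T and NK markers summed to 137 to 160 CPM in BN1 cells and 77.7 to 107 CPM in control cells, with 4 to 6 and 5 to 7 of 11 markers at 0. Erythroid and megakaryocyte markers summed to 4.26 to 5.28 CPM in BN1 cells and 1.90 to 2.51 CPM in control cells, with 6 of 11 and 5 to 6 of 11 at 0. Most of the T and NK sum was Lck and Nkg7, and both were higher in BN1 cells. The part of these lists in the result was not tested.

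**Figure D1:**
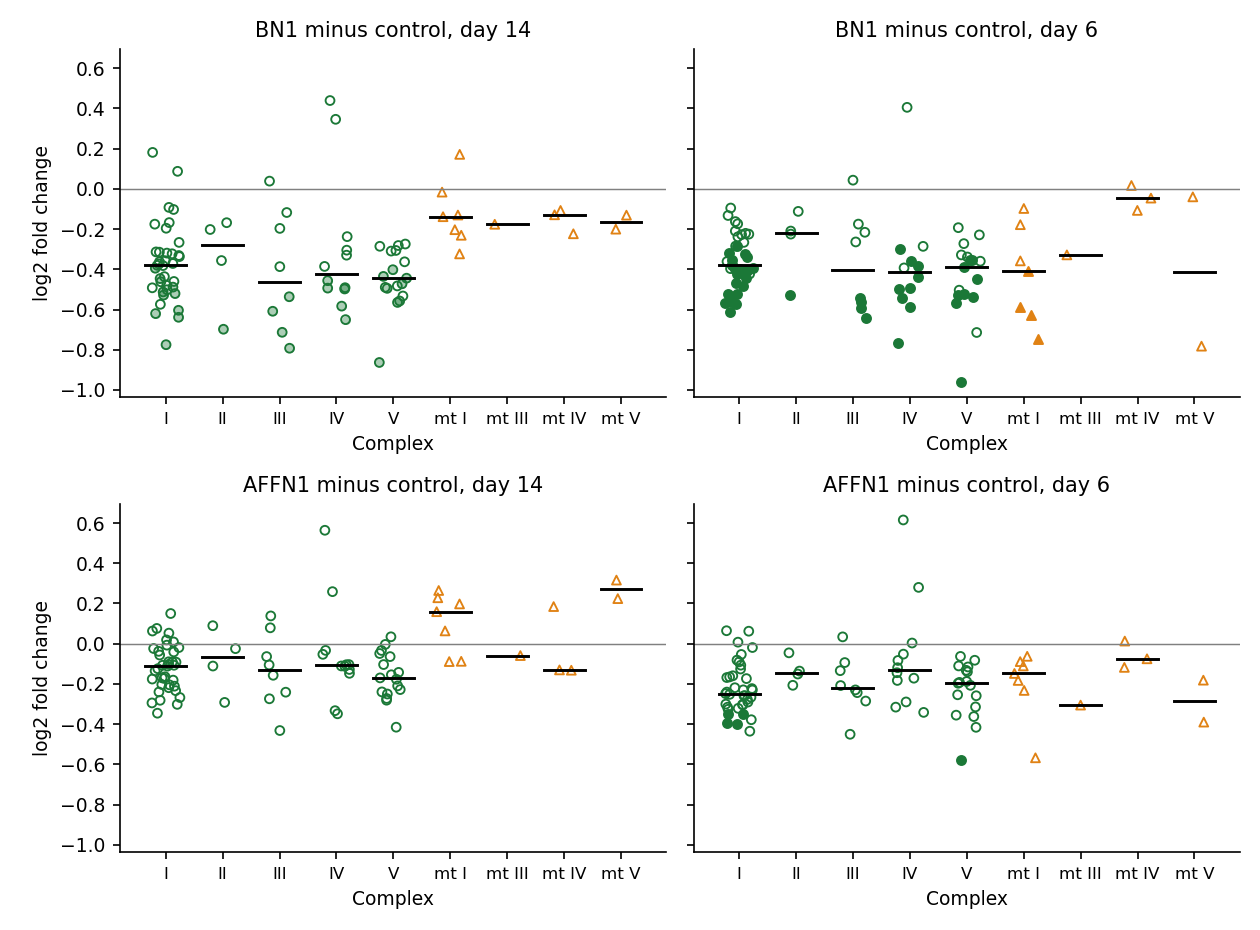
log2 fold changes of each tested member, by complex and by genome (circles nuclear, triangles mitochondrial), for BN1 minus control (top) and AFFN1 minus control (bottom) on day 14 (left) and day 6 (right). Full symbols passed the test, pale symbols passed with the replicate block of day 14 alone, open symbols did not pass, and bars are medians; nuclear medians of BN1 cells are −0.39 on day 14 and −0.38 on day 6.

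On day 14 most nuclear members again had lower values in BN1 cells than in control cells, although none passed without a block. The median log2 fold change of the 78 was −0.39, against −0.0048 over all genes, with 73 of 78 negative. Of the 13 mitochondrial members 12 were also negative, with a median of −0.14, and the difference between the nuclear and mitochondrial members was not tested. BN1 values lay below all control values for 62 of the 78, against 15.8% of all genes. edgeR without a block called none of the members and 0.0257% of all genes, while 55 nuclear members had an unadjusted p under 0.05, all lower, against 20.2% of all genes. On this day libraries of the same number share a code in their labels, and with that number as a block edgeR called 29 nuclear members, all lower, and 11.6% of all genes, 6.61% lower. DESeq2 called 24 members, all lower, and 5.64% of all genes, 3.15% lower, and the fit on all 18 libraries called 29 (5.5% of all genes). The block's count was 3 without the libraries numbered 1, all lower, against 5.07% of all genes called and 2.47% called lower. Without those numbered 2 it was 1, lower, against 1.22% and 0.544%. Without those numbered 3 it was 5, with 4 lower and 1 higher, against 5.87% and 3.64%. In these fits the members' share was near the background.

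The 29 were 10 in complex I, 1 in complex II, 4 in complex III, 6 in complex IV and 8 in complex V, and 24 of them were among the 46 of day 6 (82.8% of the 29 and 52.2% of the 46). Atp5g1 had 72.3, 70.5 and 77.6 CPM in BN1 cells and 174.1, 104.2 and 122.6 CPM in control cells, lower in each numbered pair. Its log2 fold change was −0.86 without the block (adjusted p = 0.108) and −0.84 with it (SE 0.15, adjusted p = 0.0137). Uqcrq, a small subunit of complex III, had 36.9, 45.5 and 57.3 CPM in BN1 cells and 91.9, 61.5 and 88.6 CPM in control cells (−0.79 with the block, adjusted p = 0.022, and 0.109 without).

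Uqcr11 had 36.3, 43.3 and 40.6 CPM in BN1 cells and 67.5, 53.7 and 76.1 CPM in control cells (−0.71 with the block, adjusted p = 0.0181, and 0.108 without). Sdhb had 78.3, 86.1 and 72.3 CPM in BN1 cells and 145.5, 108.6 and 129.7 CPM in control cells (−0.69, adjusted p = 0.0195, and 0.114 without). Ndufa5 had 9.37, 9.70 and 10.4 CPM in BN1 cells and 19.4, 12.8 and 18.2 CPM in control cells (−0.75, adjusted p = 0.0225, and 0.118 without). In all 3 genes the groups did not overlap. Atp5b, which had missed the threshold on day 6, had 657.6, 633.7 and 697.6 CPM in BN1 cells and 1104, 832.1 and 1006 CPM in control cells (−0.56, adjusted p = 0.03 with the block and 0.123 without).

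Atp5k, with the largest fall of day 6, had 12.0, 17.2 and 16.8 CPM in BN1 cells of day 14 and 21.7, 17.6 and 27.3 CPM in control cells, a log2 fold change of −0.53 that was not called. Members with positive values included Cox7a2l, at 0.44 (adjusted p = 0.42), with 387.2, 583.7 and 424.9 CPM in BN1 cells and 260.3, 349.0 and 420.3 CPM in control cells. No mitochondrial member was called by edgeR with or without the block, and none had an unadjusted p under 0.05. Marker lists differed as well on day 14. The summed B-lineage markers were 11480 to 13540 CPM in BN1 cells and 7326 to 10760 CPM in control cells, with none of 13 at 0. Immediate early and stress genes summed to 466 to 528 CPM in BN1 cells and 363 to 426 CPM in control cells, with none of 12 at 0. Myeloid markers summed to 39.6 to 67.9 CPM in BN1 cells and 16.9 to 37.1 CPM in control cells, with 4 to 7 of 11 at 0 in both. T and NK markers summed to 139 to 158 CPM in BN1 cells and 160 to 203 CPM in control cells, with 5 to 6 and 3 to 6 of 11 at 0. Most of the T and NK sum was Lck, at 126.6, 121.8 and 127.8 CPM in BN1 cells and 150.3, 148.1 and 178.3 CPM in control cells. Nkg7 went the other way, with 17.1, 10.9 and 14.7 CPM in BN1 cells and 7.80, 6.22 and 4.98 CPM in control cells. Klrb1c was also higher in BN1 cells. The part of these lists in the result was not tested.

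**Figure D2:**
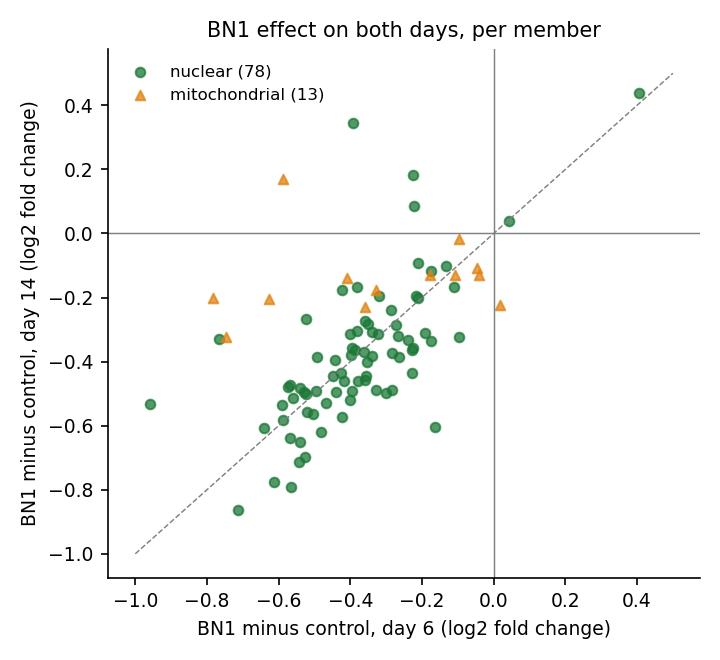
log2 fold change of BN1 minus control on day 14 (vertical) against day 6 (horizontal) for 78 nuclear members (circles) and 13 mitochondrial members (triangles); the dashed line marks equal values. Most nuclear points sit in the lower left along the line, and 73 of the 78 are negative on both days.

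The effects of BN1 on the 2 days share no library. Across the 78 nuclear members they had a Pearson's r of 0.675 and a Spearman's rho of 0.693, given as a description, since genes of 1 library are not independent. A test of the difference between the BN1 effects of the 2 days called none of the 91 members and 2.97% of all genes. At an unadjusted p under 0.05 it had 1 nuclear and 1 mitochondrial member, against 13.0% of all genes, and DESeq2 and the block called none. The plot of the BN1 effect on both days shows Cox7a2l at its upper right corner.

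AFFN1 cells were set against the same control libraries. On day 6, 5 of 78 nuclear members and no mitochondrial member fell, and none rose, against 12.7% of all genes called, 4.87% lower and 7.79% higher. The share of nuclear members called was below that of all genes, and the share that fell was near the background. The 5 were Atp5l, subunit g of the ATP synthase, and the complex I members Ndufb4, Ndufa4, Ndufb9 and Ndufs4. Atp5l had 64.2, 64.9 and 54.5 CPM in AFFN1 cells and 89.5, 107.3 and 77.9 CPM in control cells (−0.58, SE 0.16, adjusted p = 0.0381). Ndufa4 had 84.8, 97.1 and 86.0 CPM in AFFN1 cells and 112.1, 127.1 and 113.2 CPM in control cells (−0.39, adjusted p = 0.0272). Ndufb4 (−0.40, adjusted p = 0.0484), Ndufb9 (−0.35, adjusted p = 0.0383) and Ndufs4 (−0.35, adjusted p = 0.0356) also had no overlap between groups.

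The median log2 fold change was −0.21 for the nuclear and −0.15 for the mitochondrial members on day 6. AFFN1 values lay below all control values for 28 of the 78 nuclear members, against 15.1% of all genes. Stem and multipotent progenitor markers summed to 1739 to 2094 CPM in AFFN1 cells and 1269 to 1318 CPM in control cells on day 6. Of 8, 2 to 3 and 3 were at 0. Most of that sum was Ly6a, at 1718, 1692 and 1467 CPM in AFFN1 cells and 1063, 1062 and 1028 CPM in control cells. Flt3, Meis1 and Cd34 were also higher in AFFN1 cells, while Kit overlapped. T and NK markers summed to 117 to 138 CPM in AFFN1 cells and 77.7 to 107 CPM in control cells. Of 11, 3 to 5 and 5 to 7 were at 0. Most of the T and NK sum was Lck, which was higher in AFFN1 cells, while Nkg7 overlapped. The part of these lists in the result was not tested. The count of 5 went to 0 without AFFN1 library 1 (6.02% of all genes called) or control library 2 (9.14%). It went to 1 without AFFN1 library 2 (6.1%), AFFN1 library 3 (14.7%) or control library 1 (8.36%). It went to 21, with 20 lower and 1 higher, without control library 3 (18.4%), and to 35 without the 3 libraries numbered 3 (34 lower, 1 higher, against 32.1% of all genes, 15.8% lower). On day 14 edgeR called no member with or without the block, and DESeq2 called none. The background was 0.0429% of all genes, 4 nuclear members had an unadjusted p under 0.05 (6.19% of all genes), 5 had AFFN1 values below all control values (4.94% of all genes), and the medians were −0.11 for the nuclear and 0.16 for the mitochondrial members. A test of the difference between the AFFN1 effects of the 2 days called none of the members and 1.46% of all genes. No member had an unadjusted p under 0.05 there, against 9.71% of all genes, and the block and DESeq2 called none.

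The fusions were also compared directly. On day 6, BN1 cells were lower than AFFN1 cells in 2 nuclear members and higher in none, against 11.2% of all genes called, 6.19% lower and 4.99% higher. The members' share was below the background. Uqcr11 had 29.3, 36.5 and 36.2 CPM in BN1 cells and 44.1, 43.4 and 51.9 CPM in AFFN1 cells (−0.45, SE 0.12, adjusted p = 0.0345). Cox6c, a small subunit of complex IV, had 90.3, 107.3 and 104.9 CPM in BN1 cells and 121.5, 125.4 and 126.3 CPM in AFFN1 cells (−0.30, SE 0.08, adjusted p = 0.0422). BN1 values lay below all AFFN1 values for 29 of 78, against 18.4% of all genes. Atp5k had a value of −0.77 that missed the threshold (adjusted p = 0.051). No member was called without BN1 library 1 (8.5% of all genes called), BN1 library 3 (7.53%), AFFN1 library 2 (5.92%) or AFFN1 library 3 (8.53%), while 4 were called without BN1 library 2 (7.62%) and 1 without AFFN1 library 1 (6.41%). Stem and multipotent progenitor markers summed to 1193 to 1401 CPM in BN1 cells and 1739 to 2094 CPM in AFFN1 cells on day 6. Of 8, 2 to 3 were at 0 in both. Most of that sum was Ly6a, at 1066, 1134 and 960.2 CPM in BN1 cells and 1718, 1692 and 1467 CPM in AFFN1 cells. Flt3 was also lower in BN1 cells, while Kit, Cd34 and Meis1 overlapped. Erythroid and megakaryocyte markers summed to 4.26 to 5.28 CPM in BN1 cells and 2.47 to 2.77 CPM in AFFN1 cells. Of 11, 6 and 7 were at 0. The part of these lists in the result was not tested. On day 14 edgeR called no member and 0.0% of all genes, and the block and DESeq2 called no member. There 26 nuclear members had an unadjusted p under 0.05, all lower in BN1 cells, against 8.51% of all genes. In 45 of 78, BN1 values lay below all AFFN1 values, against 8.54% of all genes, and the median was −0.27. T and NK markers summed to 139 to 158 CPM in BN1 cells and 197 to 238 CPM in AFFN1 cells on day 14. Of 11, 5 to 6 and 4 to 6 were at 0. Most of that sum was Lck, which was lower in BN1 cells, as was Nkg7, and the part of this list was not tested.

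The other genes of the pathway, by list, had median log2 fold changes between −0.31 and 0.02 in BN1 cells on day 6. Of 50 assembly factors tested, 4 fell and 2 rose in BN1 cells, with a median log2 fold change of −0.15. Over all genes 17.4% were called, 8.53% lower, so the share of assembly factors that fell was near the background. Atpaf1, which helps to build the catalytic head of the ATP synthase, was the largest change at 33.4, 38.6 and 35.0 CPM in BN1 cells and 20.2, 20.1 and 17.0 CPM in control cells (0.90, SE 0.10, adjusted p = 0.000238). Sdhaf4, an assembly factor of complex II, rose in BN1 cells (0.75, adjusted p = 0.00368), and Uqcc2, one of complex III, fell (−0.61, adjusted p = 0.0179). Of 27 import genes 4 fell, among them Tomm7 of the outer membrane translocase (−0.65, adjusted p = 0.0136). Of 15 genes for cytochrome c and coenzyme Q synthesis only Cycs, cytochrome c itself, was called (−0.57, adjusted p = 0.0354). Among genes of the tricarboxylic acid cycle, Mdh2, a malate dehydrogenase gene, fell (−0.47, adjusted p = 0.0369). Of 33 genes for mitochondrial DNA and RNA only Slirp, which stabilises mitochondrial messenger RNA, was called (−0.58, adjusted p = 0.0283), and of 13 regulators of mitochondrial biogenesis only Sirt1 (0.33, adjusted p = 0.032).

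On day 14 edgeR without the block called none of these genes between BN1 and control cells. With the block, 9 of 27 import genes, 4 of 13 of the tricarboxylic acid cycle, 3 of 15 for carriers, 3 of 49 assembly factors, 2 of 33 for mitochondrial DNA and RNA and 2 of 14 regulators fell, and 1 carrier gene and 1 regulator rose. Over all genes the block called 11.6%, 6.61% lower, so the assembly factors and the genes for mitochondrial DNA and RNA were near the background. The regulators that fell were Myc, with 211.3, 92.4 and 233.7 CPM in BN1 cells and 566.8, 180.1 and 334.2 CPM in control cells (−0.95, adjusted p = 0.0231), and the coactivator gene Pprc1 (−0.76, adjusted p = 0.0198). Sirt3, a mitochondrial deacetylase gene, rose (0.69, adjusted p = 0.0198).

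AFFN1 cells were lower in Uqcc1, an assembly factor of complex III. Uqcc1 had 19.6, 17.2 and 23.2 CPM in AFFN1 cells and 47.2, 44.8 and 56.1 CPM in control cells on day 6 (−1.30, SE 0.13, adjusted p = 0.000226 by edgeR). BN1 cells had 52.5, 54.3 and 61.8 CPM of Uqcc1, higher than AFFN1 cells by 1.49 on the log2 scale (adjusted p = 6.95e-05). The AFFN1 effect on Uqcc1 differed between the days by 1.17 (SE 0.19, adjusted p = 0.00394), and the BN1 effect on Atpaf1 by −1.06 (SE 0.19, adjusted p = 0.00278).

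**Figure D3:**
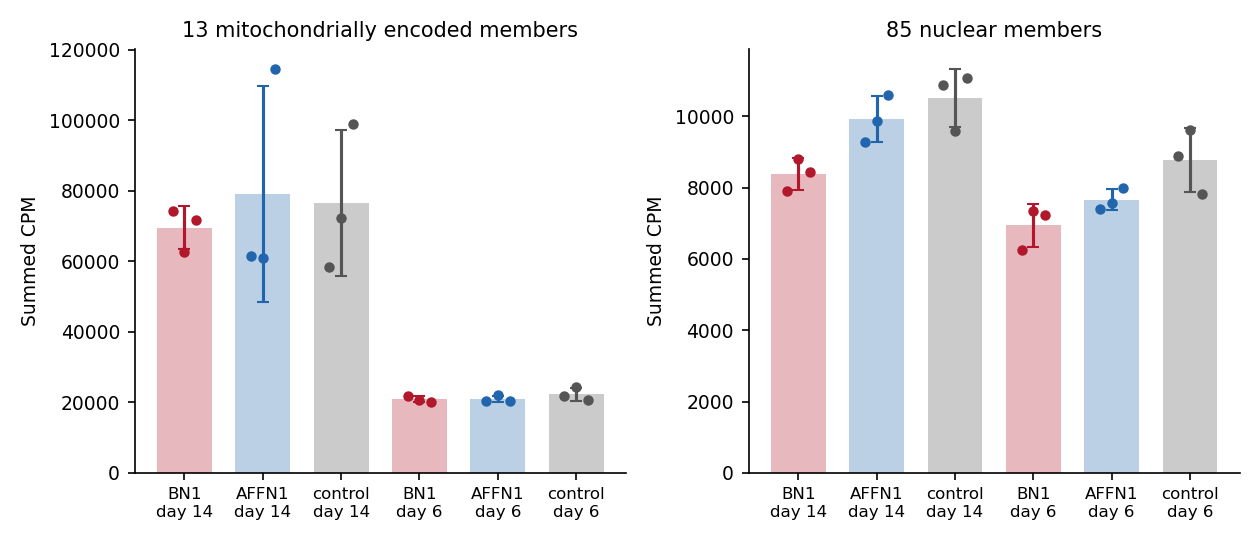
Summed CPM of the 13 mitochondrial (left) and the 85 nuclear members (right) per library (points), with group means (bars) and SD (lines, n = 3), scaled over all 18 libraries. Mitochondrial sums lie between 58310 and 114400 CPM on day 14 and between 20190 and 24260 CPM on day 6, and BN1 cells have the lowest nuclear mean on both days.

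Between the days, transcripts of the mitochondrial genome took a larger share of all counts on day 14, while the shares of the nuclear members lay within the spread between libraries. The mitochondrial members held 6.31 ± 0.54% of all counts in BN1 cells on day 14 and 2.37 ± 0.13% on day 6 (SD, n = 3 each). In AFFN1 cells they held 6.77 ± 2.21% on day 14 and 2.38 ± 0.11% on day 6, and in control cells 6.70 ± 1.54% and 2.47 ± 0.18%. The nuclear members held 0.762 ± 0.042% in BN1 cells on day 14 and 0.788 ± 0.059% on day 6, 0.860 ± 0.022% and 0.872 ± 0.044% in AFFN1 cells, and 0.925 ± 0.057% and 0.975 ± 0.086% in control cells. With TMM scaling over all 18 libraries the nuclear sums were higher on day 14 in every group: 8387 ± 450.9 CPM on day 14 and 6946 ± 596.3 CPM on day 6 in BN1 cells, 9925 ± 652.6 and 7657 ± 294.4 CPM in AFFN1 cells, and 10510 ± 809.3 and 8777 ± 897.3 CPM in control cells (SD, n = 3 each). The ratio of mitochondrial to nuclear counts was 8.33 ± 1.15 in BN1, 7.86 ± 2.55 in AFFN1 and 7.29 ± 1.81 in control cells on day 14. On day 6 it was 3.02 ± 0.39 in BN1, 2.74 ± 0.17 in AFFN1 and 2.54 ± 0.08 in control cells. The ranges of the days did not overlap in any group. Summed over the mitochondrial members, libraries numbered 3 of AFFN1 and control cells were highest on day 14, at 114400 and 99060 CPM. The other 7 libraries of that day had 58310 to 74360 CPM. Control cells also spread downward, with a ratio of 5.36 in library 1 and 7.55 and 8.95 in libraries 2 and 3.

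By edgeR, 12 mitochondrial members rose on day 14 and mt-Nd6 fell, in BN1, AFFN1 and control cells alike. The background was 48.2% of all genes called in BN1, 47.8% in AFFN1 and 43.9% in control cells. The median log2 fold change of the 13 was 1.75 in BN1, 1.88 in AFFN1 and 1.77 in control cells. mt-Co1, the catalytic subunit of complex IV and the most abundant member, had 21290, 18660 and 21680 CPM in BN1 cells on day 14 and 7928, 7031 and 6756 CPM on day 6 (2.84-fold, adjusted p = 0.00012). mt-Cytb, the only mitochondrial subunit of complex III, rose by 2.34 in BN1, 2.45 in AFFN1 and 2.19 in control cells.

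Marker lists moved with the day as well. Stem and multipotent progenitor markers summed to 219 to 430 CPM on day 14 and 1193 to 1401 CPM on day 6 in BN1 cells, 204 to 1372 and 1739 to 2094 CPM in AFFN1 cells, and 206 to 1204 and 1269 to 1318 CPM in control cells, with 2 to 4 of 8 at 0 on day 14 and 2 to 3 on day 6. On day 6 most of this stem and progenitor sum was Ly6a, at 1066, 1134 and 960.2 CPM in BN1 cells. On day 14 Ly6a had 101.1, 25.3 and 140.4 CPM there. Kit rose there, from 149.9, 172.0 and 154.6 CPM on day 6 to 307.1, 185.7 and 234.5 CPM on day 14. Flt3, Cd34 and Meis1 were lower there on day 14. Library 1 of control and AFFN1 cells on day 14 had 1068 and 1168 CPM of Ly6a. B-lineage markers summed to 11480 to 13540 CPM on day 14 and 8572 to 8940 CPM on day 6 in BN1 cells. T and NK markers summed to 197 to 238 CPM on day 14 and 117 to 138 CPM on day 6 in AFFN1 cells. In control cells they summed to 160 to 203 and 77.7 to 107 CPM. Of 11, 3 to 6 were at 0 on day 14 and 3 to 7 on day 6 in these groups. Most of the sum was Lck, which rose in both groups, in control cells from 62.7, 59.9 and 64.6 CPM to 150.3, 148.1 and 178.3 CPM. Trac also rose in both. Nkg7 fell in control cells, from 24.85, 15.2 and 33.4 CPM to 7.80, 6.22 and 4.98 CPM, and so did Klrb1c. Both overlapped between the days in AFFN1 cells. Myeloid markers summed to 25.7 to 74.8 CPM on day 14 and 78.6 to 88.4 CPM on day 6 in AFFN1 cells, and to 16.9 to 37.1 and 58.5 to 152 CPM in control cells, with 4 to 7 of 11 at 0 on day 14 and 4 to 6 on day 6. Erythroid and megakaryocyte markers were higher on day 14 in the same groups, at 6.21 to 39.5 CPM against 2.47 to 2.77 CPM in AFFN1 cells and 6.83 to 36.1 CPM against 1.90 to 2.51 CPM in control cells, with 2 to 7 of 11 at 0 on day 14 and 5 to 7 on day 6. Ptprc stood at 276 to 287 CPM on day 14 and 317 to 373 CPM on day 6 in BN1 cells. In AFFN1 cells it stood at 185 to 287 and 320 to 407.5 CPM, and in control cells the days overlapped. Immediate early and stress genes summed to 363 to 426 CPM on day 14 and 460 to 861 CPM on day 6 in control cells, and overlapped in BN1 and AFFN1 cells. The part of Ptprc and of these lists in the changes between days was not tested.

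mt-Nd6 went against all the others. It had 1.09, 1.71 and 1.18 CPM in BN1 cells on day 14 and 20.6, 21.7 and 12.8 CPM on day 6. In AFFN1 cells it had 1.64, 1.29 and 1.77 CPM on day 14 and 20.7, 19.4 and 22.0 CPM on day 6, and in control cells 0.907, 1.65 and 2.39 CPM on day 14 and 34.8, 33.6 and 23.3 CPM on day 6. The log2 fold changes were −3.78 (SE 0.30, adjusted p = 1.35e-07) in BN1, −3.72 (SE 0.30, adjusted p = 1.38e-07) in AFFN1 and −4.22 (SE 0.30, adjusted p = 5.20e-08) in control cells. mt-Nd6 lies at chrM:13552-14070 (mm10) and is the one member on the minus strand of the mitochondrial genome, and its end overlaps that of mt-Nd5 on the plus strand. The libraries keep strand, but the strand setting of the counting is not given in the sources used here. Whether reads of the opposite strand were counted for mt-Nd6, along the gene or at the overlap, is therefore not known.

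mt-Atp8 was the other extreme. It had 395.5, 411.5 and 482.0 CPM in BN1 cells on day 14 and 12.4, 23.3 and 12.1 CPM on day 6. In AFFN1 cells it had 440.2, 490.9 and 912.5 CPM on day 14 and 18.2, 19.2 and 25.1 CPM on day 6, and in control cells 311.1, 562.7 and 588.8 CPM on day 14 and 25.9, 21.3 and 34.1 CPM on day 6. The log2 fold changes were 4.75 (SE 0.37) in BN1, 4.88 (SE 0.37) in AFFN1 and 4.17 (SE 0.36) in control cells, a rise of 27.0-fold, 29.5-fold and 18.0-fold. mt-Atp8 lies at chrM:7766-7969, is the shortest member at 204 bases, and overlaps the start of mt-Atp6 at chrM:7927-8607. mt-Atp6, read from the same transcript, rose by 1.75 in BN1, 2.25 in AFFN1 and 1.83 in control cells.

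**Figure D4:**
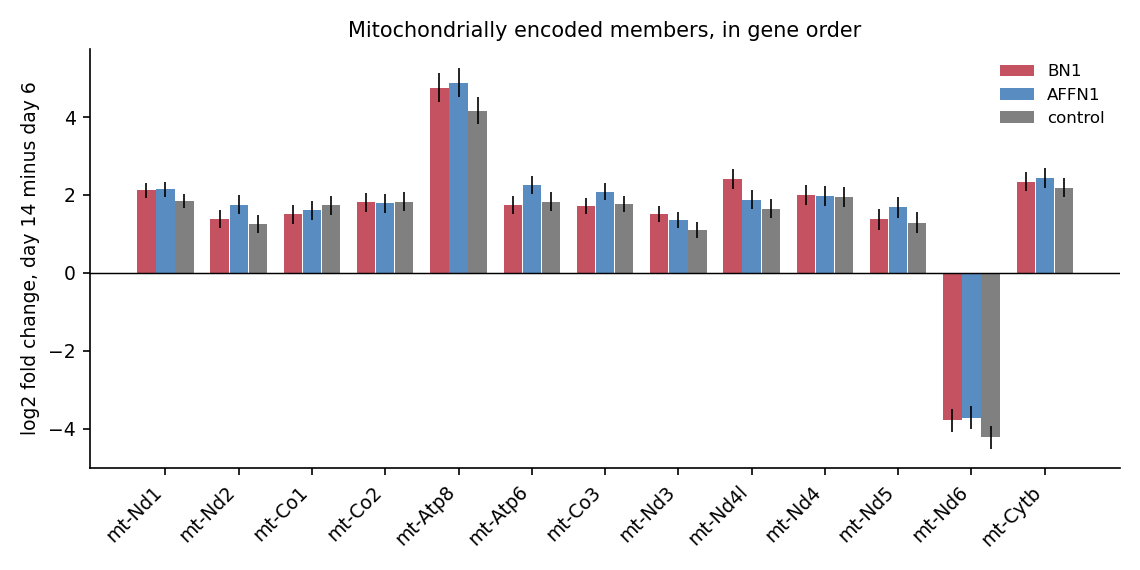
log2 fold change of day 14 minus day 6 for the 13 mitochondrial members in their order on the genome, in BN1, AFFN1 and control cells (bars, with SE as lines). Values of 11 members lie between 1.09 and 2.45, mt-Atp8 reaches 4.88 and mt-Nd6 falls to −4.22.

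Nuclear members changed in both directions between the days. In BN1 cells 37 of 78 rose and 11 fell on day 14, in AFFN1 cells 40 rose and 5 fell, and in control cells 35 rose and 11 fell, against 24.2%, 24.4% and 22.4% of all genes called higher and 24.0%, 23.5% and 21.4% called lower. Complex IV had 8 higher and 0 lower of 12 in BN1 cells, 7 and 0 in AFFN1 cells, and 6 and 0 in control cells. Complex I had 17 higher and 8 lower of 37 in BN1 cells, 19 and 4 in AFFN1 cells, and 16 and 8 in control cells, and no member of complex II was higher in any group. These splits depended on the scaling. Scaling by total counts moved the median of all genes to −0.36 in BN1, −0.41 in AFFN1 and −0.36 in control cells, against −0.04, −0.02 and −0.03 with TMM. With it, 21 nuclear members were higher and 26 lower in BN1 cells, 19 and 23 in AFFN1 cells, and 15 and 26 in control cells, while all 13 mitochondrial calls stood at 12 higher and 1 lower. The shares of all genes above belong to TMM, and those for total counts are not given here.

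Atp5d, the delta subunit of the central stalk of complex V, had the largest called rise in control and AFFN1 cells. It had 250.1, 280.7 and 302.4 CPM in BN1 cells on day 14 and 101.1, 124.7 and 118.8 CPM on day 6 (1.27, SE 0.15, adjusted p = 5.28e-06), and its log2 fold changes were 1.31 in AFFN1 and 1.24 in control cells. Cox8a, a small subunit of complex IV, rose by 1.27 in BN1, 1.22 in AFFN1 and 1.19 in control cells. Ndufb6, an accessory subunit of complex I, fell by 0.73 in BN1, 0.51 in AFFN1 and 0.67 in control cells, and Atp5g3 fell by 0.45, 0.42 and 0.55 in the same groups. Cox6a2 was called higher in BN1 cells (1.87, SE 0.68, adjusted p = 0.0329), with 1.46, 5.14 and 11.5 CPM on day 14 and 1.43, 1.78 and 1.76 CPM on day 6. The days overlapped, since only libraries 2 and 3 of day 14 stood above those of day 6. On day 14 it had 3.21, 4.98 and 12.9 CPM in AFFN1 cells and 1.63, 5.12 and 7.30 CPM in control cells, and in each group of that day library 1 was lowest and library 3 highest.

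The change between days went with base composition. Across the 77 nuclear members with a protein-coding transcript, the change on day 14 had a Pearson's r of 0.289 with transcript GC in BN1, 0.274 in AFFN1 and 0.309 in control cells (Spearman's rho 0.306, 0.268 and 0.305). Over all genes tested rho was 0.271, 0.256 and 0.251. The 25 members with the lowest GC, 42.0 to 49.8%, had median log2 fold changes of 0.09 in BN1, 0.22 in AFFN1 and 0.08 in control cells, and the 25 with the highest, 54.1 to 61.1%, had medians of 0.48, 0.61 and 0.51. The BN1 effect within a day had an r of 0.05 with GC on day 14 and 0.04 on day 6. With log2 transcript length it had an r of 0.09 on day 14 and 0.225 on day 6 across the nuclear members. The rho with length was 0.174 on day 14 and 0.301 on day 6, and 0.204 and 0.151 over all genes tested. These correlations are over genes of the same libraries and are descriptions. A part of GC in the change between days, or of length in the BN1 effect, was not tested.

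**Figure D5:**
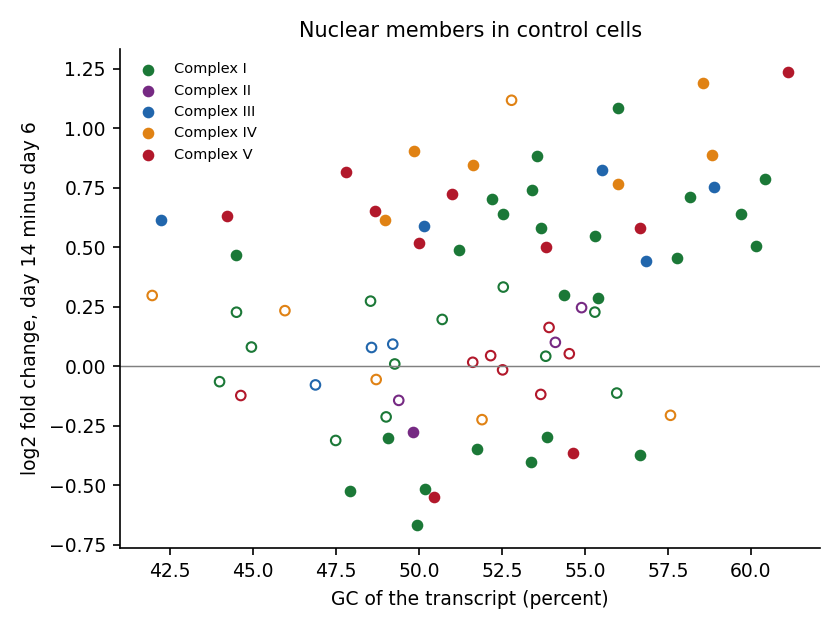
log2 fold change of day 14 minus day 6 in control cells (vertical) against the GC of the transcript (horizontal, percent) for 77 nuclear members coloured by complex; full symbols passed the test. Members from 54.1 to 61.1% GC have a median of 0.51 and those from 42.0 to 49.8% a median of 0.08.

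Per length, mt-Co1 stood above Atp5b, and not every mitochondrial member did. In CPM per kilobase, scaled over all 18 libraries, mt-Co1 stood at 13300 in BN1, 14180 in AFFN1 and 15320 in control cells on day 14, and Atp5b, the nuclear member with the highest level per length on day 6, at 392 in BN1, 495 in AFFN1 and 573 in control cells. On day 6 mt-Co1 stood at 4685 in BN1, 4651 in AFFN1 and 4590 in control cells and Atp5b at 403 in BN1, 443 in AFFN1 and 566 in control cells. On the same scale mt-Nd6 was below Atp5b on both days, at 2.56 in BN1, 3.02 in AFFN1 and 3.17 in control cells on day 14 and 35.4, 39.9 and 58.9 on day 6. On day 6 mt-Atp8 was below it, at 78.2 in BN1, 102 in AFFN1 and 133 in control cells, as was mt-Nd4l at 137, 185 and 204, and mt-Nd3 in BN1 (346) and control cells (530). Several members have near-identical copies elsewhere in the genome, such as pseudogenes of short subunits and nuclear copies of mitochondrial DNA, and the expected counts divide shared reads among them, so their levels carry that uncertainty.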

How the data were processed

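Bulk RNA was poly(A)-selected and made into stranded libraries, per the labels' protocols. The authors deposited expected counts per gene, made with STAR and RSEM on mm10 per the submitters' processing notes, which also name DESeq2. The sources used here do not give versions, annotation or strand setting. Between 1.74 and 2.12% of values per library were not whole, and expected counts were rounded before tests. Genes passing filterByExpr were tested with edgeR 4.0.16 (R 4.3.3) by quasi-likelihood with TMM scaling and robust fitting, on the 9 libraries of a day, or on all 18 across days. P-values were two-sided, adjusted by Benjamini-Hochberg over all genes tested, and called under 0.05. In all, 11 comparisons were made. DESeq2 1.42.0, other scalings, filters, designs and left-out libraries were alternatives. The edgeR fit was tested on simulated data. Coordinates are from GENCODE M21.

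Same-numbered libraries of day 14 share a code in the labels and deviated together (r 0.309 to 0.662, against −0.539 to 0.031 for other pairs). Those of day 6 share only a number. Sums and ratios over members are descriptions. Members and gene lists were chosen with earlier results of these data known. CPM used TMM scaling, over the libraries of a day for comparisons within it and over all 18 for summed levels, markers and comparisons between days. Genes named are all mitochondrial members, core subunits, tissue isoforms, up to 10 called members per direction and up to 4 called genes per list; members that differ from their complex in direction may be added. Atp5d, Atp5g1, Atp5g2, Atp5h, Uqcrq and Uqcrc2 were chosen after their values were seen, as were the members described on day 14 by the block.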

Additional observations from a re-analysis of the deposited data

How the results depend on the processing

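Depth limits the isoforms of other tissues, and 3 libraries per group limit all calls. Of 149 calls of named members, 77 kept call and direction under every alternative run and 72 were lost in at least 1. Uqcrfs1, between days, changed sign when scaled by total counts (−0.095 in AFFN1 and −0.26 in control cells, against 0.30 and 0.079) and so did Uqcrc2 in AFFN1 cells (−0.28, against 0.11); the cause is the scaling itself. That setting, added after seeing the data, called 3 members for AFFN1 minus control on day 6, against 1546 of 12068 genes. CPM without TMM gave changes in the summed level on day 14 of 1.41 (BN1), 1.46 (AFFN1) and 1.42 (control) for mitochondrial and −0.048, −0.019 and −0.075 for nuclear members. The cause was not tested for the rest.

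On day 6, DESeq2 called 8 members for AFFN1 minus control (1977 of 14043 genes) and 5 for BN1 minus AFFN1 (1771 of 13707 genes). It called 24 for BN1 minus control on day 14 (5.64% of all genes). The fit on all 18 libraries called 1 for AFFN1 minus control on day 6 (676 of 12567 genes). It called 0 for BN1 minus AFFN1 on day 6 (624 of 12567 genes). In these 2 comparisons the members' share was below that of all genes. For BN1 minus control the fit on all 18 libraries called 29 on day 14 (5.5% of all genes) and 25 on day 6 (8.21%). With no filter on low counts 1 was called for BN1 minus AFFN1 on day 6, against 1289 of 18082 genes. With the replicate block, 29 were called for BN1 minus control on day 14 (11.6% of all genes). After day 14 libraries numbered 1, 2 or 3 were also left out, it called 3, 1 and 5 (5.07%, 1.22% and 5.87%). On day 6 the block called 39, and the share of all genes in that fit is not given here. Without the libraries numbered 3 of day 6, 35 were called for AFFN1 minus control (32.1% of all genes). For BN1 minus AFFN1 1 was called, and the share of all genes there is not given here. The block changed no other comparison by more than 1.5 times; it was not run between days, whose numbers do not pair. On day 6 same-numbered libraries had correlations of −0.376 to 0.373.

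Leaving out 1 library at a time, the members called on day 6 ranged from 9 to 62 for BN1 minus control, 0 to 21 for AFFN1 minus control and 0 to 4 for BN1 minus AFFN1. On day 14 they stayed at 0, and between days at 51 to 58. The summed nuclear level of BN1 minus control stayed between −0.43 and −0.28 on day 6 and between −0.41 and −0.30 on day 14. The log2 ratio of mitochondrial to nuclear counts between days stayed between 1.23 and 1.70.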
